A study of Mus musculus with 14 samples.

Results

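Ribosome association was compared between Adad2 mutant and wild-type testis gene by gene, over the genes that were counted well in every library. Ribosome association is here the log2 of a gene's CPM, its counts relative to the library size after TMM scaling, in ribosome-bound RNA over its CPM in total RNA of the same animal. Libraries came from testes of mice of the C57BL/6 strain at 21 days post partum (dpp), 3 wild type (animals 121, 140 and 17) and 4 mutant (animals 12, 69, 93 and 94). Wild-type animals were Adad2+/+:Stra8iCre+:Rpl22HA and mutants were Adad2M/M:Stra8iCre+:Rpl22HA, so that Cre and the tagged ribosomal protein were shared by both genotypes. Each animal gave an input library of whole testis lysate and an IP library of RNA pulled down with an antibody to HA, 14 libraries in all. Genes were kept with 10 or more counts in all 14 libraries, which left 8721 of 53337 annotated genes, 8375 of them protein coding. Levels of genotype difference are given as mutant minus wild type on the log2 scale of IP over input, with the standard error (SE) of the fit.

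RiboTag marks ribosomes with an HA epitope on RPL22, a protein of the large subunit, once Cre has removed the untagged last exon. Stra8-iCre is active in male germ cells from the spermatogonial stage, so tagged ribosomes come from germ cells and their transcripts are enriched over those of Sertoli, Leydig and peritubular cells. ADAD2 is an RNA-binding protein of spermatocytes with an adenosine deaminase domain, and the purpose of the comparison was to find transcripts whose ribosome association depends on it. A transcript largely bound by tagged ribosomes has a high ratio, while a stored or nuclear transcript, or one of an untagged cell, has a low ratio. Because counts are relative to the library, each difference is measured against the other genes.

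The filter itself did not act evenly on the genotypes. Of 11217 genes with 10 or more counts in all other libraries, 2496 (22.3%) failed in mutant IP, whereas 25 of 8746 (0.286%) failed in wild-type IP alone. Genes lost from mutant IP are therefore outside the comparison, and 109 of them were at 0 in all 4 mutant IP libraries. Total counts were 22987974 to 30871330 per library, and the members held 91.8 to 96.5% of the gene counts. Input libraries of mutants 12 and 69 stood apart, with 16033 and 15446 genes above 0 against 21348 and 27021 in mutants 93 and 94 and 25332 to 27816 in wild type. IP libraries had 12748 to 15032 genes above 0 in mutants and 19668 to 21894 in wild type. Several of the results below are given with and without mutants 12 and 69.

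No gene passed the test of the genotype difference. The quasi-likelihood test of edgeR, with each animal as a block, called 0 of 8721 genes in either direction (0% called), and the smallest adjusted p was 0.997. At an unadjusted p under 0.05 it counted 143 genes higher (1.64%) and 123 lower (1.41%) in mutants, 3.05% in all. DESeq2 called 1 gene (0.0115%), Col4a1, lower in mutants, and limma on the per-animal ratios called 0. Fitted differences were centred near 0, with a median of 0.02 and 4590 genes above 0 (52.6%). The 3 wild-type and 4 mutant ratios did not overlap for 287 genes that were higher (3.29%) and 241 that were lower (2.76%) in mutants. Beyond single genes, 460 members (5.27%) had a fitted difference of over 2-fold, and 267 of these were among the 2180 genes with the lowest counts.

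**Figure D1:**
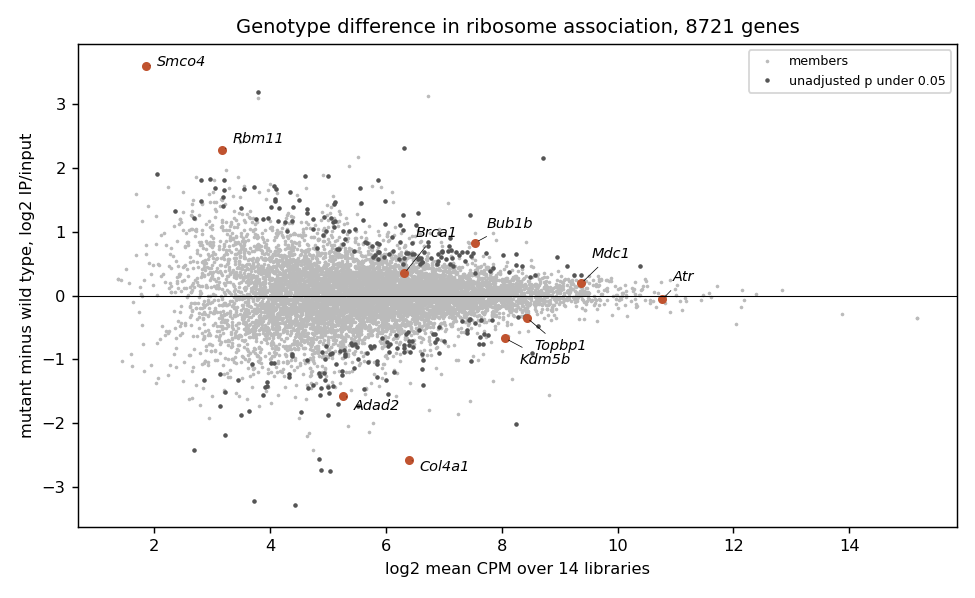
Fitted genotype difference in log2 IP over input (y axis, mutant minus wild type) against the log2 of mean CPM over 14 libraries (x axis) for 8721 genes. Grey points are all members, dark points have an unadjusted edgeR p under 0.05 and orange points are named. The scatter narrows as counts rise, and Mdc1 (0.19) and Atr (-0.06) lie near 0 at high counts.

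How large a difference the data could have missed depended on the level of the gene. The 95% confidence interval lay within 2-fold in both directions for 3716 genes (42.6%). When genes were cut by mean CPM into quartiles, this held for 1911 of 2181 genes (87.6%) in the highest (109 CPM and above) and for 24 of 2180 (1.10%) in the lowest. The median SE was 0.21 in the highest quartile and 0.62 in the lowest. A change of 2-fold would thus lie outside the interval of most abundant transcripts with differences near 0, and inside that of most scarce ones.

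Across genes, these ratios spread more within each mutant than within each wild type. Over all 8721 genes the SD of the log2 ratio was 1.14, 1.10 and 0.97 in wild types 121, 140 and 17, and 1.40, 1.52, 1.29 and 1.27 in mutants 12, 69, 93 and 94. All 4 mutants lay above all 3 wild types, a difference in mean of 0.299 (two-sided exact permutation p = 0.0286, the smallest that 35 splits of the animals allow). In the highest quartile of mean CPM the SDs were 0.93 to 1.08 in wild type and 1.12 to 1.26 in mutants, with the same exact p of 0.0286. These tests concern the spread across genes within an animal, and the spread between animals was not tested. Pairs of wild-type animals had Spearman correlations of 0.885 to 0.913 across the 8721 genes, which share libraries and are not independent. The same correlation was 0.553 between mutants 12 and 69 and 0.789 between mutants 93 and 94. For a single gene, the median SD between animals was 0.21 in wild type, 0.55 in the 4 mutants and 0.27 between mutants 93 and 94 alone. In the highest quartile these were 0.144, 0.306 and 0.143 in the same order, the last from 2 values per gene. The median of an SD from 2 values runs lower than that from 3 or 4, so these are not directly comparable. In that quartile the median absolute difference was 0.202 between mutants 93 and 94 and 0.144 to 0.189 between pairs of wild types.

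**Figure D2:**
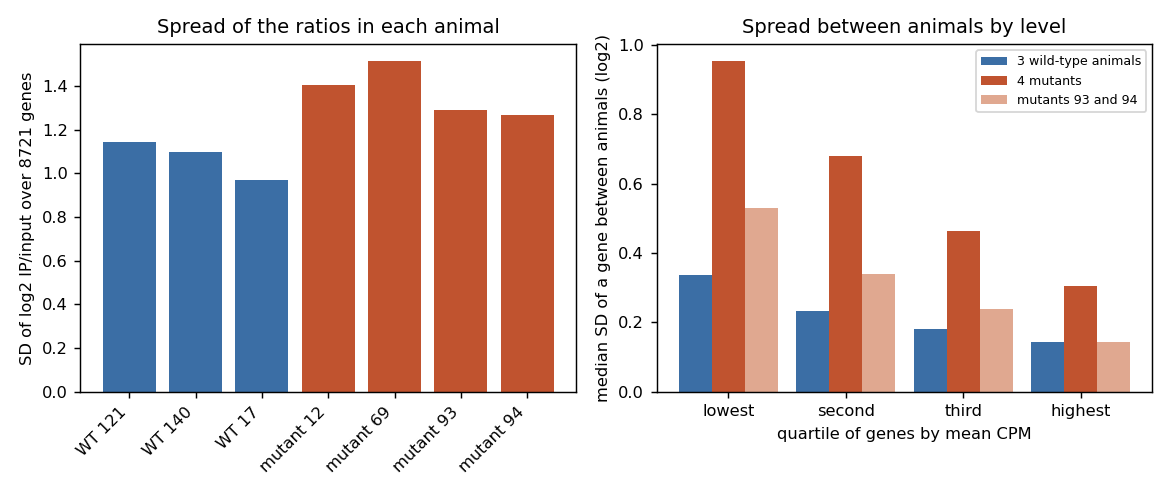
Left, SD of log2 IP over input across 8721 genes in each animal (bars, wild type blue, mutant orange). Right, median over genes of the SD between animals, by quartile of mean CPM, for 3 wild types, 4 mutants and mutants 93 and 94, the last an SD of 2 values. The median of an SD from 2 values runs lower than that from 3 or 4. Mutant bars run from 1.27 to 1.52 and wild-type bars from 0.97 to 1.14, and the median SD between animals in the highest quartile is 0.144 in wild type, 0.306 in the 4 mutants and 0.143 between mutants 93 and 94.

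Genes of the XY body and the targeted gene were examined first. The XY body is the silenced chromatin domain of the sex chromosomes in spermatocytes, where BRCA1 brings ATR and TOPBP1 to unsynapsed axes and MDC1 spreads phosphorylated H2AX over the chromatin loops. Mdc1 (ENSMUSG00000061607.15, chromosome 17, 35841515 to 35859670, GRCm38) had 526 ± 64.3 CPM in wild-type and 371 ± 27.9 in mutant input (SD, n = 3 and 4). In IP it had 997 ± 83.2 CPM in wild type and 807 ± 82.9 in mutants. Its log2 ratio was 0.85, 0.86 and 1.07 in wild type and 1.28, 1.01, 0.96 and 1.23 in mutants, so that mutants 69 and 93 lay within the wild-type range. The difference of 0.19 (SE 0.13, 95% interval -0.10 to 0.49) was not past the test, and a change of 2-fold either way lay outside its interval. When genes of low counts were kept in the fit the difference turned to -0.036, as the median of all members moved to -0.21.

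Topbp1 (ENSMUSG00000032555.10), which activates ATR, had log2 ratios of 0.79, 0.79 and 0.95 in wild type and 0.38, 0.66, 0.45 and 0.48 in mutants. Every mutant was below every wild type, by 0.35 on average (SE 0.13), with an unadjusted edgeR p under 0.05 that did not pass adjustment. On ratios of TPM, where the median of all members moved to 0.21, its difference was 0.15. Brca1 (ENSMUSG00000017146.12) lay the other way without overlap. Its ratios were 0.62, 0.52 and 0.62 in wild type and 0.87, 0.73, 1.34 and 0.80 in mutants, a difference of 0.35 (SE 0.23), or 0.22 without mutant 93. The kinase gene Atr (ENSMUSG00000032409.15) was the most abundant of these, near 1919 CPM in wild-type and 1962 in mutant input, and its difference of -0.06 (SE 0.18) had an interval of -0.46 to 0.34. It turned to 0.050 at most when 1 animal was left out. Of the 31 measured genes on the list of XY body and DNA damage response factors, 16 lay above and 15 below 0, with a median of 0.02, equal to that of all members, and 1 (Topbp1) had an unadjusted edgeR p under 0.05, against 3.05% of all members. Hormad2, a marker of unsynapsed axes, and Fancd2, of the Fanconi pathway, had the next smallest p, at differences of 0.58 (SE 0.30) and 0.29 (SE 0.17).

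Adad2 (ENSMUSG00000024266.8, chromosome 8, 119612747 to 119616924) checks the labels. Its input level was 32.9, 35.4 and 38.2 CPM in wild type and 7.75, 7.51, 14.6 and 13.9 in mutants, with no overlap. In IP it had 109 to 120 CPM in wild type and 7.69 to 14.3 in mutants. The log2 ratio was 1.73, 1.77 and 1.53 in wild type and 0.76, 0.93, -0.41 and -0.85 in mutants. All mutants were below wild type, by 1.57 (SE 0.47, 2.97-fold), and mutants 93 and 94 were lower than mutants 12 and 69. The adjusted edgeR p was 0.997 over 7 animals and 0.0449 without mutants 12 and 69, where the difference was -2.31 (SE 0.25). Without those 2 animals, an alternative chosen after the data were seen, Phyhipl was also called lower by edgeR (difference -3.64, adjusted p = 0.0323). Mutants 12 and 69 differed from 93 and 94 for this gene. Phyhipl had log2 ratios of 1.56 and -1.06 in mutants 12 and 69 and of -4.47 and -3.98 in 93 and 94, against -0.27 to -1.02 in wild type.

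Eef1g and Eef1d, subunits of the complex that recharges the elongation factor eEF1A with GTP, had ratios above 0 in all 7 animals. Eef1g had log2 ratios of 0.38, 0.42 and 0.32 in wild type and 0.55, 0.71, 0.80 and 0.58 in mutants. Every mutant was higher, by 0.29 (SE 0.13). Eef1d overlapped between genotypes, at a difference of 0.24 (SE 0.19) that ran from 0.16 without mutant 94 to 0.38 without mutant 12.

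**Figure D3:**
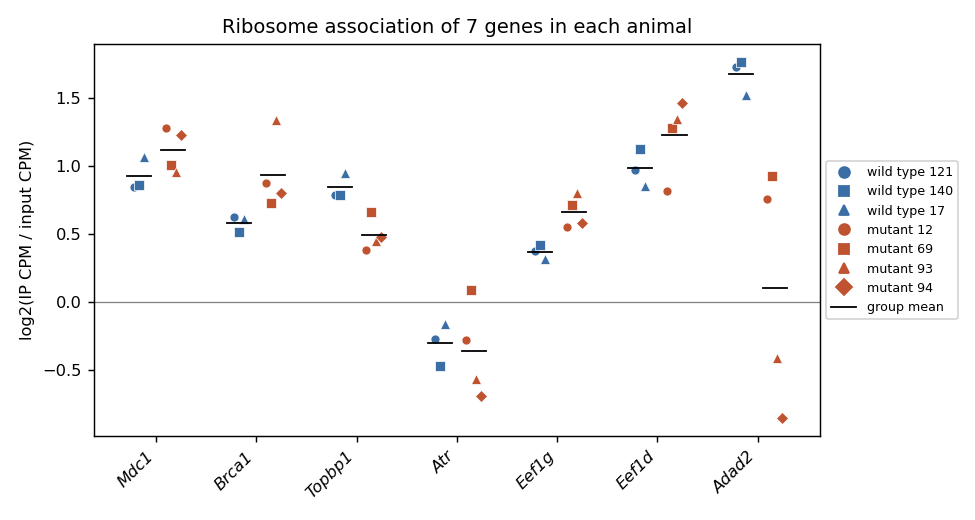
Log2 of IP over input CPM (y axis) in each animal for Mdc1, Brca1, Topbp1, Atr, Eef1g, Eef1d and Adad2. Points are animals (wild type blue, mutant orange) and black lines are group means. Adad2 has the widest gap, from 1.53 to 1.77 in wild type to -0.85 to 0.93 in mutants, and Mdc1, Atr and Eef1d overlap between genotypes.

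Protein-coding genes with the smallest p and no overlap between genotypes were named next, up to 12 on each side. All had an unadjusted edgeR p under 0.05 and an adjusted p of 0.997. Bub1b encodes the spindle checkpoint kinase BUBR1. Its log2 ratio was 1.33, 1.27 and 1.13 in wild type and 2.10, 2.60, 1.90 and 1.69 in mutants, a difference of 0.83 (SE 0.22, 1.78-fold). Its input level was 127 ± 7.78 CPM in wild type and 63.3 ± 20.1 in mutants while its IP level averaged 301 and 268 CPM, so the higher ratio went with a lower input. The same held for Med16, a subunit of the Mediator complex of transcription, with 127 ± 12.6 and 51.1 ± 2.21 CPM in wild-type and mutant input and 230 ± 14.2 and 152 ± 26.9 in IP. Med16 had ratios of 0.93, 0.83 and 0.81 in wild type and 1.84, 1.61, 1.27 and 1.51 in mutants (difference 0.70, SE 0.19). Nup107, of the nuclear pore scaffold, had a difference of 0.91 (SE 0.26), and Kpna2, an importin that carries cargo into the nucleus, one of 0.46 (SE 0.13) at average levels of 429 to 645 CPM.

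Other genes on the higher side had roles in the mitochondrion, in RNA decay and in lipid synthesis. Hspa9, the HSP70 chaperone of the mitochondrial matrix, had ratios of 0.21, -0.14 and -0.03 in wild type and 0.37, 0.90, 0.84 and 0.50 in mutants (difference 0.64, SE 0.18). Exosc3, of the RNA exosome, differed by 1.16 (SE 0.33), Ak6, an adenylate kinase of the nucleus, by 0.66 (SE 0.18) and Ktn1, the kinesin receptor of the endoplasmic reticulum, by 1.21 (SE 0.36). Dgat2, which makes triacylglycerol, differed by 1.47 (SE 0.41), with mutant 69 at 2.90 and the other mutants at 1.49 to 1.81. The ubiquitin gene Ubb was the most abundant, at average levels of 1209 to 1714 CPM, with a difference of 0.47 (SE 0.14). Its reads can be shared with near-identical ubiquitin copies, so its value is uncertain. Rbm11, a splicing regulator, and Smco4 had differences of 2.28 (SE 0.61) and 3.60 (SE 1.01), but at mean levels of 1.28 to 12.3 CPM in every group.

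Genes with a lower ratio in mutants included Kdm5b and Opa1. Kdm5b removes methyl groups from lysine 4 of histone H3, and its log2 ratio was 0.14, 0.34 and 0.25 in wild type and -0.17, -0.21, -0.81 and -0.52 in mutants. Its sign was thus opposite in the genotypes, at a difference of -0.67 (SE 0.18). Opa1, the GTPase that fuses inner mitochondrial membranes, had ratios of -0.34, -0.46 and -0.12 in wild type and -1.81, -1.24, -2.08 and -1.39 in mutants (difference -1.32, SE 0.28). Zbtb5, a zinc finger repressor, differed by -0.83 (SE 0.22), Mroh8 by -0.59 (SE 0.17), Tmc7, a membrane protein, by -1.14 (SE 0.32) and Brpf3, a subunit of histone acetyltransferase complexes, by -1.32 (SE 0.38).

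The rest of the lower genes included several that somatic cells express. Col4a1, a chain of the collagen of basement membranes, had the smallest p of all members, with ratios of -3.08, -3.18 and -1.09 in wild type and -4.81, -5.66, -4.40 and -5.34 in mutants. Its difference was -2.58 (SE 0.53, adjusted p = 0.997), and DESeq2 gave an adjusted p of 0.00131. The level of Col4a1 in IP was 26.0 ± 19.2 CPM in wild type and 5.49 ± 2.72 in mutants, below input (122 ± 21.7 and 177 ± 71.2) in both. Heg1, a receptor of endothelial junctions, and Flvcr2, a transporter, followed this pattern at differences of -1.41 (SE 0.38) and -1.44 (SE 0.40). Pard3b, a polarity protein, Wasf2, which directs actin branching, and Tmem87b had differences of -3.21 (SE 0.87), -2.74 (SE 0.79) and -3.28 (SE 0.95). Mean levels of Pard3b were 6.58 and 30.7 CPM in wild-type and mutant input and 6.92 and 5.07 in IP. Its lower ratio thus went with a higher input, and wild type 121 had 0.93 CPM in input. Wasf2 had 40.8 and 59.5 CPM in input and 23.6 and 6.37 in IP, in the same order. Tmem87b had 21.0 and 45.1 CPM in input and 14.4 and 4.15 in IP. On ratios of TPM the differences of Wasf2 and Brpf3 turned to 1.05 and 0.61.

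**Figure D4:**
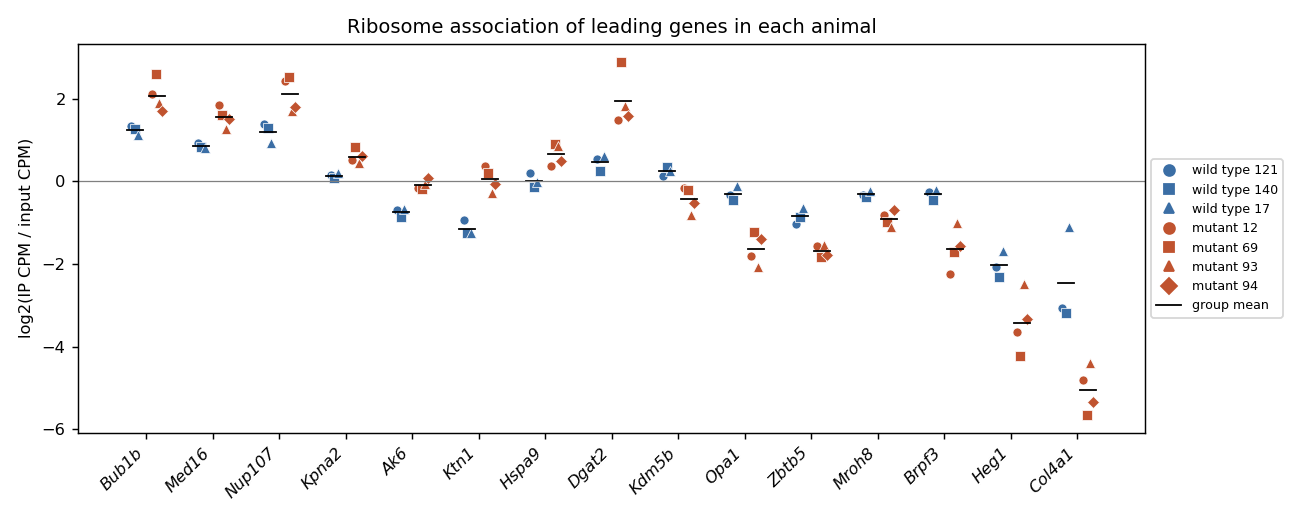
Log2 of IP over input CPM (y axis) in each animal for 15 genes among those with the smallest p and no overlap between genotypes, higher in mutants from Bub1b to Dgat2 and lower from Kdm5b to Col4a1. Points are animals (wild type blue, mutant orange) and black lines are group means. None passed the adjusted test of edgeR, and Col4a1 and Heg1 lie far below 0 in all 7 animals.

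Cytosolic ribosomal protein genes had a higher median difference than all members, although in absolute terms it was -0.0019 when genes of low counts were kept in the fit. Of 85 cytosolic ribosomal protein genes 75 were measured, and 66 of these (88%) had a difference above 0, against 52.6% of all members. Their median difference was 0.23, and all members had 0.02. None was called, and 3 had an unadjusted edgeR p under 0.05 on the higher side and 1 on the lower side, against 1.64% and 1.41% of all members. The 7 animals did not separate by the list. Its median log2 ratio was 0.50, 0.40 and 0.27 in wild type and 0.38, 0.53, 0.73 and 0.80 in mutants, so that mutant 12 lay within the wild-type range. In mutants 93 and 94, 69 and 66 of the 75 genes were above their wild-type mean, and in mutants 12 and 69 it was 30 and 50. Over all members these shares were 49.6 to 54.7% in each mutant. Relative to all members, the list's median difference was 0.20 with all animals, 0.35 without mutants 12 and 69, and 0.093 in the fit corrected for transcript length.

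Ribosomal protein genes varied among themselves within this shift. Rpl21 had log2 ratios of 0.29, 0.17 and 0.31 in wild type and 0.43, 0.68, 0.60 and 0.62 in mutants (difference 0.32, SE 0.13). Rps24 differed by 0.33 (SE 0.14), and the values of both in mutants lay above those in wild type. Rps13 went the other way, from 0.84, 0.23 and 0.19 in wild type to -0.83, -0.45, -0.46 and -0.17 in mutants, all wild types above 0 and all mutants below (difference -0.89, SE 0.30). Processed pseudogenes of these genes are many, and reads that match both are divided by the quantification, so values of single ribosomal protein genes are uncertain.

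Many ribosomal protein transcripts begin with a terminal oligopyrimidine tract, a C followed by a run of C and T, through which growth signalling sets their loading on ribosomes. The annotated start (RefSeq, GRCm38.p6) was therefore read in the 54 measured ribosomal protein genes that matched a promoter sequence by symbol, chromosome and strand. A tract was counted as C at the first base with at least 4 bases of C or T after it, on the strand of the gene alone. It was found at 12 of these 54 starts (22.2%), at 2.33% of the 6835 matched members and at 2.51% of 32851 promoters. Shown are 4 abundant genes with a tract and 2 without a tract, among starts within 30 bases of the GENCODE start. They were taken by mean CPM from a part of the chromosomes, so they need not be the most abundant of all. Each is given over 15 bases on each side of the start, with the pyrimidine run from the first transcribed base in capitals.
Rpl15 (chr14:18270972-18271001, minus strand): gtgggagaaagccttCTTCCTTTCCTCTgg
Rps18 (chr17:33955651-33955680, minus strand): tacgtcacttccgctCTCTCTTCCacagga
Rps21 (chr2:180257364-180257393, plus strand): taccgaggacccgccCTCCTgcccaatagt
Rps27 (chr3:90213634-90213663, minus strand): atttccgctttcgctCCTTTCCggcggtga
Rpl4 (chr9:64173372-64173401, plus strand): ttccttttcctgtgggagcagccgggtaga
Rplp0 (chr5:115559452-115559481, plus strand): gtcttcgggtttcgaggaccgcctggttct
The genotype difference was 0.01 (SE 0.25) for Rpl15, 0.40 (SE 0.23) for Rps18, 0.16 (SE 0.20) for Rps21 and 0.29 (SE 0.21) for Rps27. It was 0.05 (SE 0.14) for Rpl4 and 0.08 (SE 0.16) for Rplp0. Over the 54 genes the median difference was 0.20 with a tract and 0.25 without one, and 11 of 12 and 35 of 42 lay above 0. No letters of a tract at an annotated start says only that these bases are not there, since 29 of the 54 starts were within 30 bases of the GENCODE start.

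Other lists of the translation machinery had smaller medians. Of 54 measured initiation and elongation factors, 38 had a fitted difference above 0 (median 0.15). The median ratio of that list was 0.39, 0.46 and 0.28 in wild type and 0.35, 0.42, 0.21 and 0.28 in mutants, so the genotypes overlapped and mutants were not higher by this measure. Of 87 ribosome assembly factors, 61 lay above 0 (median 0.14), with list ratios of 0.68 to 0.85 in wild type and 0.69 to 0.95 in mutants. The median of the assembly list relative to all members was 0.12 with all animals and 0.06 without mutants 12 and 69. Denr, which reinitiates translation with MCTS1, had ratios of 0.75, 0.94 and 0.81 in wild type and 1.40, 1.60, 1.47 and 1.16 in mutants (difference 0.58, SE 0.22). Eif4ebp2, a repressor of cap-dependent initiation, had a difference of -1.07 (SE 0.40) with overlap between genotypes. Its mean level was 46.3 and 107 CPM in wild-type and mutant input and 31.6 and 34.3 in IP. Gtpbp4 and Heatr1, needed to make large and small ribosomal subunits respectively, had differences of -1.82 (SE 0.57) and -0.76 (SE 0.29), against the direction of most of their list, and that of Heatr1 was -0.49 without mutant 12. Of 75 mitochondrial ribosomal proteins 49 lay above 0 (median 0.11), with Mrpl40, Mrps21 and Mrpl17 at 0.81 (SE 0.29), 0.88 (SE 0.37) and 0.95 (SE 0.41). Their median relative to all members was 0.09 with all animals and 0.22 without mutants 12 and 69. It was 0.0056 without wild type 17, 0.038 without mutant 93 and 0.19 without mutant 12. Factors that rescue stalled ribosomes had 14 of 28 above 0 and a median of 0.01.

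For genes of homologous recombination 18 of 36 lay above 0 (median -0.0042), and for synapsis and axis genes 15 of 27 (median 0.07). Mlh3, of the MutL complex that resolves crossovers, had ratios of -0.81, 0.13 and -0.01 in wild type and -0.85, -1.20, -1.40 and -2.06 in mutants, all mutants below all wild types (difference -1.15, SE 0.33). Its nuclease partner Exo1 differed by 1.01 (SE 0.40) in the other direction, without overlap. Syce3, of the central element of the synaptonemal complex, differed by 0.61 (SE 0.27), and the meiotic cohesins Smc1b and Stag3 by 0.31 (SE 0.15) and 0.23 (SE 0.11), all 3 without overlap between genotypes. Of the 27 synapsis and axis genes these 3 were higher and 2 others lower without overlap, where all members had 3.29% and 2.76%. Spindle and M phase genes had 42 of 65 above 0 (median 0.13), among them Birc5, the survivin of the chromosomal passenger complex (0.81, SE 0.33), and Plk1, polo-like kinase (0.58, SE 0.25). Relative to all members, the spindle and M phase median was 0.10 with all animals and 0.03 without mutants 12 and 69.

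Of 29 measured factors of the piRNA pathway and germ granules, 18 lay above 0, with a median of 0.08. Gpat2, needed for piRNA production, had ratios of 1.72 to 2.12 in wild type and 2.24 to 2.88 in mutants (difference 0.63, SE 0.20). Tdrd12, a Tudor domain protein, and Mov10l1, the helicase that feeds piRNA precursors, were also higher in every mutant, by 0.68 (SE 0.22) and 0.32 (SE 0.12). Of the 29, 4 were higher and 1 lower without overlap, where all members had 3.29% and 2.76%. In mutants 12, 69, 93 and 94, 19, 13, 18 and 13 of the 29 lay above their wild-type mean. The list's median relative to all members was 0.057 in the main fit and -0.064 on ratios of TPM. Among RNA-binding regulators of translation in germ cells 28 of 53 lay above 0, with Lsm14b at 0.59 (SE 0.22) and Strbp at -0.61 (SE 0.23). Polycomb and histone H3 lysine 4 factors had a median of 0.05, and HP1 and lysine 9 methylation factors had 0.04. X-linked genes, silenced in the XY body, had 120 of 238 above 0 and a median of 0.01.

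Markers of late pachytene and diplotene spermatocytes had 12 of 43 above 0 (27.9%, median -0.09), and none had an unadjusted p under 0.05. Relative to all members their median was -0.11 with all animals and -0.031 without mutants 12 and 69. The list's median ratio was -0.07, 0.05 and -0.07 in wild type and -0.11, -0.12, -0.06 and -0.19 in mutants, with overlap. Summed over all 48 annotated markers, log2 IP over input was 0.77 to 0.96 in wild type and 0.85 to 1.07 in mutants. Spermatogonial and meiotic entry markers had 22 of 32 above 0 (median 0.13), with the deubiquitinase Uchl1 at 0.59 (SE 0.21). The relative median of this list was 0.11 with all animals and 0.04 without mutants 12 and 69. Its median ratio was 1.83, 1.65 and 1.61 in wild type and 1.67, 1.73, 1.43 and 1.89 in mutants, with overlap. Summed over all 42 annotated markers, log2 IP over input was 0.92 to 0.93 in wild type and 1.20 to 1.34 in mutants. Of 59 round spermatid markers just 16 passed the filter (median -0.09), among them the acrosomal gene Acrv1 at -0.94 (SE 0.39). Their relative median was -0.12 with all animals and 0.05 without mutants 12 and 69, and it ran from -0.21 without wild type 121 to 0.0021 without mutant 12. In mutant IP 17 of the 59 were at 0 in all 4 libraries, including the protamines Prm1 and Prm2 and the transition proteins Tnp1 and Tnp2. Of these, Catsper1, Klk1b8 and Spem1 were also at 0 in all wild-type IP libraries. Klk1b8 and Spem1 were at 0 in all mutant input libraries as well, and Klk1b8 also in all wild-type input libraries. Genes of any kind above 0 numbered 12748 to 15032 in mutant IP libraries and 19668 to 21894 in wild-type IP. The summed level of the list was 1354 to 1743 CPM in mutant IP against 2077 to 2469 in wild-type IP. In input it was 1946 to 2959 CPM in mutants and 3027 to 3748 in wild type. In whole testis, fewer cells of a type and less RNA per cell cannot be told apart.

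**Figure D5:**
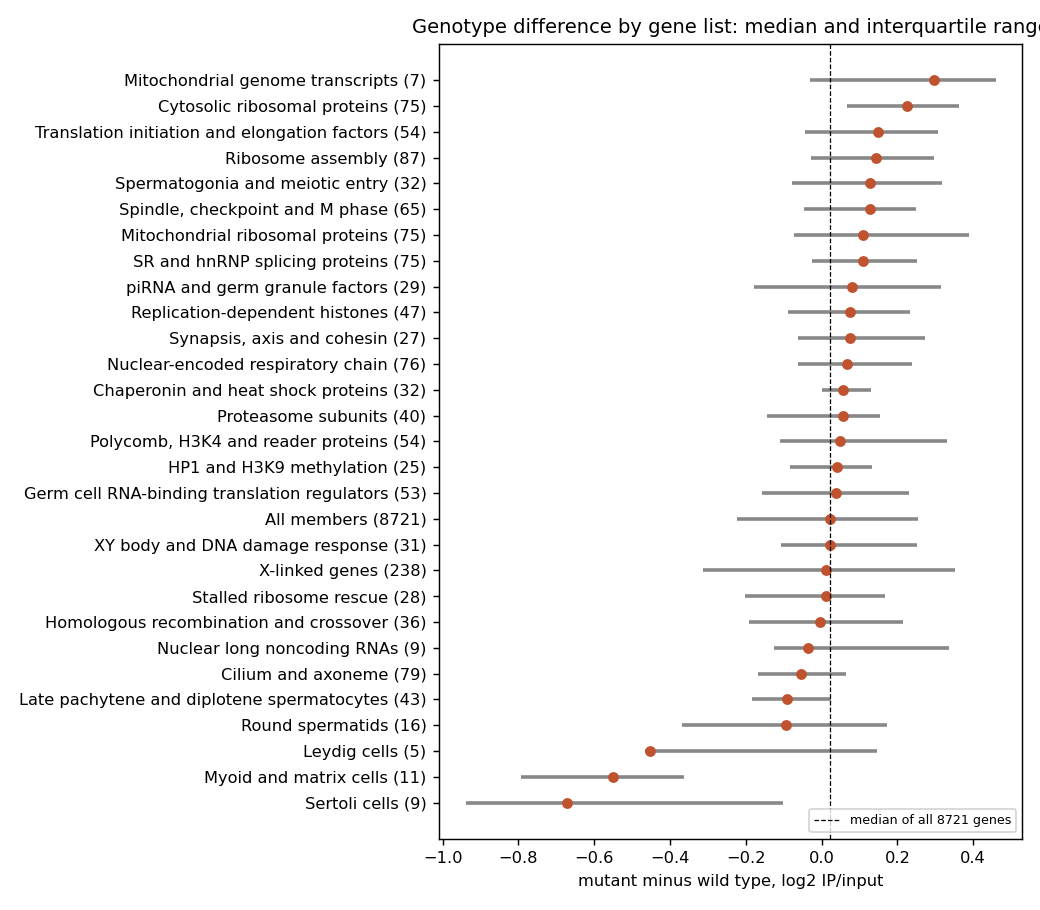
Median (point) and interquartile range (line) of the genotype difference in log2 IP over input (x axis) over the measured members of each gene list, whose number stands in parentheses. The dashed line is the median of all 8721 genes, 0.02. Cytosolic ribosomal proteins lie at 0.23, and Sertoli (-0.67), myoid and matrix (-0.55) and Leydig lists (-0.45) lie lowest, on 9, 11 and 5 genes.

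Markers of the somatic cells, whose ribosomes carry no tag, lay lowest. Of 32 Sertoli markers 9 were measured, 8 of them below 0, with a median of -0.67. The list's median ratio was -2.85, -3.04 and -2.05 in wild type and -3.70, -3.92, -3.41 and -3.60 in mutants, all mutants below all wild types. Relative to all members the list's median difference was -0.70, and it ran from -0.77 without wild type 140 to -0.42 without mutant 12. Summed over all 32 markers, Sertoli transcripts made up 347 to 638 CPM in wild-type and 293 to 509 in mutant IP, and 2202 to 2469 CPM in wild-type and 2728 to 3471 in mutant input. Fshr, the receptor for follicle-stimulating hormone, was among the markers at 0 in all mutant IP libraries. It was also at 0 in all wild-type input libraries. Ctsl, a lysosomal protease that Sertoli cells secrete, had ratios of -1.12, -1.16 and -1.07 in wild type and -1.81, -1.27, -1.65 and -1.62 in mutants (difference -0.47, SE 0.15). Clu, the secreted chaperone clusterin, differed by -2.01 (SE 0.72), with mutant 93 at -3.41 inside the wild-type range and the other mutants at -5.61 to -5.97.

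Peritubular myoid and matrix genes had 9 of 11 below 0 (median -0.55), of 22 on the list. Their summed level was 354 to 616 CPM in wild-type and 325 to 583 in mutant IP, and 1744 to 1828 CPM in wild-type and 2108 to 2882 in mutant input. Actg2, Cnn1 and Pdgfrb were at 0 in all mutant IP libraries. Sparc, a matrix glycoprotein, had a difference of -0.90 (SE 0.33) with overlap, and of -0.47 without wild type 17. Relative to all members, the median of this list was -0.57 with all animals and -0.28 without mutants 12 and 69. It was -0.96 without wild type 121, -0.29 without wild type 17 and -0.20 without mutant 12. Leydig markers had 3 of 5 below 0, of 18 on the list, and their summed level was 152 to 264 CPM in wild-type and 154 to 233 in mutant IP against 1038 to 1158 and 1224 to 1812 CPM in input. Akr1c14 and Lhcgr were at 0 in all mutant IP libraries. The relative median of these 5 genes was -0.48, and it was -0.28 without wild type 140, -0.11 without wild type 17 and -0.13 without mutant 12. Aldh1a1 had a difference of -0.57 (SE 0.38), which was -0.88 without wild type 121 and -0.064 without wild type 17. Of 29 macrophage, vessel and blood markers 1 passed the filter, and 11 were at 0 in all mutant IP libraries. Mutant IP libraries had fewer genes of any kind above 0 than wild-type IP libraries. No share over all genes stands beside these counts of somatic markers at 0. The part of somatic RNA in the differences of other genes was not tested.

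Nuclear genes of the respiratory chain had 46 of 76 above 0 (median 0.07), with Atp5k, of ATP synthase, at 0.67 (SE 0.23) and Ndufs4, of complex I, at 0.60 (SE 0.26). Transcripts of the mitochondrial genome, which cytosolic ribosomes do not translate, had 4 of 7 above 0 (median 0.30). mt-Nd6 had ratios of -3.11, -3.61 and -2.55 in wild type and -1.97, -2.47, -2.28 and -1.95 in mutants, and mt-Nd5 differed by 0.48 (SE 0.19). Both were depleted from IP in all 7 animals. Proteasome subunits had a median of 0.06, chaperonins and heat shock proteins 0.06, cilium and axoneme genes -0.05, and SR and hnRNP splicing proteins 0.11, with Ptbp1, which represses exons, at 0.46 (SE 0.20). Relative to all members, the splicing median was 0.086 with all animals and 0.020 without mutants 12 and 69. That of the proteasome was 0.033 with all animals and -0.080 without mutants 12 and 69. Replication-dependent histones, whose messages lack a poly(A) tail, had 31 of 47 above 0 (median 0.08). Their median relative to all members was 0.05, and it ran from -0.23 without wild type 17 to 0.43 without wild type 121, so its direction depended on the animals. The relative median of the 7 mitochondrial genome transcripts ran from 0.12 without mutant 94 to 0.48 without wild type 17, and that of the proteasome from -0.12 without mutant 69 to 0.10 without mutant 12. Nuclear long noncoding RNAs had 4 of 9 above 0.

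The order of genes by ribosome association was largely shared by the genotypes. The ratio was above 0 in all 7 animals for 2352 genes (27.0%) and below 0 in all 7 for 2198 (25.2%). It was above 0 in all wild types and below 0 in all mutants for 13 genes, and the reverse for 17. Histone genes led the high end in wild type: Hist1h4m, singled out, like the other genes of this paragraph, from its values, had ratios of 4.57, 2.95 and 2.83 in wild type and 2.71, 3.53, 3.44 and 3.69 in mutants. Esx1, an X-linked homeobox gene, had 2.93 to 4.07 in wild type and 3.22 to 4.62 in mutants. At the low end, mt-Co1 had -4.24, -4.01 and -4.23 in wild type and -4.14, -4.48, -4.09 and -4.04 in mutants, a difference of -0.03 (SE 0.13). Crisp2, a sperm protein, was a germ cell gene at this end, with -4.04 to -4.51 in wild type and -3.83 to -5.53 in mutants.

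Length and base composition followed the ratio more than the genotype difference. Across genes, the Spearman correlation of the ratio with the length of the 3′ UTR was -0.32 in wild type and -0.31 in mutants (8026 genes), and with GC content it was 0.32 and 0.29 (8721 genes). The genotype difference correlated by -0.07 with 3′ UTR length, by -0.07 with transcript length and by -0.0054 with GC content. Genes are not independent replicates and these are descriptions. In the shortest quartile of transcripts, up to 1611 bases, 58.6% of genes had a difference above 0 (median 0.07), and in the longest quartile, from 4158 bases, it was 48.1% (median -0.02). By chromosome, medians ran from -0.03 on chromosome 18 to 0.06 on chromosome 15 among autosomes.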

How the data were processed

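The authors cleared reads of rRNA with Bowtie2, trimmed them with Trimmomatic and quantified them with RSEM 1.3.3 on GRCm38 transcripts, assembled testis transcripts and spike-ins, per the study's methods and the submitters' processing notes. The authors deposited expected counts, without normalization, and TPM, scaled over all entries of a library, 7SL RNA included. TPM was used only as an alternative. Of 133849 Ensembl entries, 133445 matched GENCODE M21 and were summed to 53337 genes. The 404 unmatched entries (0.160 to 0.290% of counts), 48888 assembled transcripts and 92 spike-ins were left out.

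Expected counts were rounded and fitted in edgeR 4.0.16 (TMM, robust quasi-likelihood, Benjamini-Hochberg at 0.05) with animal, fraction and the interaction of fraction and genotype. Levels are TMM-scaled CPM. Ratios are IP over input of 1 animal. Input and IP of an animal come from the same testes, as the animal numbers in the labels show, and their deviations from group means correlated by 0.01 to 0.21. Limma 3.58.1, DESeq2 1.42.0, other scalings and filters, and leaving out animals were alternatives. The edgeR fit and the limma fit on ratios were tested on simulated counts with known answers. The simulated counts had the same variability in both genotypes and no animal effect, so they do not cover the larger spread between mutants. Summed marker levels are CPM of gene counts without TMM factors. Libraries held 22987974 to 30871330 counts, and the parts of depth and of the spread between animals in the precision were not tested.

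Named genes were Adad2, Mdc1, Brca1, Topbp1, Atr, Eef1g and Eef1d, up to 12 protein-coding genes per direction with the smallest p and no overlap, and up to 3 members of each of 28 lists with the smallest p. The members, lists and tests were chosen with earlier results of these data known. The labels do not say whether animals were littermates. Some results are not reported here.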

Additional observations from a re-analysis of the deposited data

Results flagged for a closer look

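For 4 of the named genes the log2 ratio had 1 sign in all 3 wild types and the other in all 4 mutants. They were Rbm11 (mutant minus wild type 2.28), Smco4 (3.60), Kdm5b (-0.67) and Rps13 (-0.89), and none passed the adjusted test of edgeR. The difference of sign itself was not tested, and the pattern was found for 17 members with mutants above 0 and 13 with mutants below 0.

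Single mutants stood apart from the other 3 by Dixon's criterion for 2 of the 66 genes named here, and chance flags about 1 group in 20. Mutant 12 had a log2 ratio of 2.74 for Rbm11, against 0.87 to 1.16 in the other mutants. Mutant 93 had -3.41 for Clu, against -5.97 to -5.61 in the others.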

How the results depend on the processing

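The count of called genes was 0 under RLE, upper-quartile and total-count scaling, limma, voom, TPM, the other minimum counts, added assembled transcripts, length correction and each animal left out. It was 1 with DESeq2 (Col4a1) and 3 without mutants 12 and 69. With filterByExpr and with no filter it was 3 and 5, none of them a member. At an unadjusted p under 0.05 the fit gave 143 higher and 123 lower genes, voom 348 and 206, limma with animal weights 323 and 234, TPM 361 and 51, filterByExpr 44 and 1484, no filter 48 and 1444, and DESeq2 140 and 219. Without mutants 12 and 69 the counts were 625 and 455; this alternative and the animal weights were chosen after seeing the data. Leaving out each animal gave 55 to 296 higher and 47 to 241 lower. Each animal is a block by design, and with no replicate block the counts were 112 and 88 and no gene was called. The median of all members moved to 0.21 with TPM, -0.19 with filterByExpr and -0.21 with no filter, so lists are read relative to it. Relative to it the ribosomal protein median was 0.09 to 0.35 over 24 alternatives, lowest with length correction and highest without mutants 12 and 69. In absolute terms it was -0.0019 with no filter.

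Of 66 named genes, 5 turned direction under some alternative, and the cause was not tested. Mdc1 had -0.018 with filterByExpr and -0.036 with no filter. With TPM, Topbp1 had 0.15, Atr 0.10, Wasf2 1.05 and Brpf3 0.61. Atr also turned without animal 17, 93 or 94 (0.0073 to 0.050). The larger spread across genes within mutants held in the 2 subsets tried. In the lowest quartile of mean CPM the median interval reached 1.39 to each side, and the median SD between animals was 0.34 in wild type and 0.95 in mutants. The parts of depth and of animals in this width were not tested.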
